A study of Mus musculus with 8 samples.

Results

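Cells that carried RNA of neutrophil primary granules were picked out of mouse heart, liver and kidney allografts and out of the blood of the recipients. A cell was a member when it held at least 500 UMIs (unique molecular identifiers, each standing for 1 captured transcript) and at most 10% mitochondrial UMIs, when Elane, Prtn3, Mpo, Ctsg and Ms4a3 summed to at least 3 UMIs over at least 2 of the 5 genes, when Cd3d, Cd3e, Cd3g and Trac summed to at most 1 UMI, and when Cd79a was at 0. This rule gave 107 cells of 47541 cells that passed the UMI and mitochondrial limits (0.225%, exact 95% binomial interval 0.184 to 0.272%). The grafts came from BALB/c donors and were placed in C57BL/6 recipients without immunosuppression, all mice were 8 weeks old, and grafts and blood were taken on day 7. The labels themselves give BALB/c and male for every library. Each of the 8 Microwell-seq libraries stood for 1 condition: blood mononuclear cells (PBMC) of heart, liver and kidney recipients, tissue-infiltrating lymphocytes (TIL) of heart, liver and kidney grafts, collected on a density gradient, and collagenase digests of whole liver and kidney (PC). The native liver was removed, whereas heart and kidney grafts were added at another site. The study's methods name a pair of recipients per organ and do not say whether their cells were pooled, so no library has a replicate, no test between conditions was possible, and every interval covers counting error only.

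Elane (neutrophil elastase), Prtn3 (proteinase 3), Mpo (myeloperoxidase) and Ctsg (cathepsin G) encode proteins of the primary, or azurophil, granule. Their RNA is made in the bone marrow by granulocyte-monocyte progenitors and promyelocytes and is shut off as neutrophils mature, while the proteins stay in the granules. Ms4a3 is a membrane protein gene of the same stage and is used to trace granulocyte-monocyte progenitors. Specific, or secondary, granule genes such as Camp, Ngp and Ltf come on later, at the myelocyte stage, and gelatinase granule and receptor genes such as Mmp9, Retnlg and Cxcr2 later still.

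Organ RNA went against the labels of a pair of libraries, which bears on where the cells came from. The library labelled heart TIL held 677 CPM (UMIs scaled to a total of 1000000) of a hepatocyte list, with 1056 Alb UMIs, and 26.1 CPM of a cardiomyocyte list, with 2 Myl7 UMIs. The library labelled liver TIL held 74.1 and 176 CPM, with 0 Alb UMIs and 128 Myl7 UMIs. In liver PC these lists stood at 345 and 28.7 CPM. Both libraries are therefore named by their labels below. The libraries held 3418722 to 19171264 UMIs over 10000 barcodes each, and 795 to 10000 cells passed. The 28 library pairs shared 123 to 617 barcodes, no barcode was a member in both libraries of a pair, and the barcodes of 10 of the 107 cells occurred in another library.

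Nearly all of the cells lay in a pair of tissue libraries. Liver PC held 55 of 10000 passing cells (0.550%, interval 0.415 to 0.715%) and the library labelled heart TIL held 40 of 9668 (0.414%, 0.296 to 0.563%). Heart PBMC held 8 of 7772 (0.103%, 0.0445 to 0.203%), the library labelled liver TIL 3 of 9337 (0.0321%, 0.00663 to 0.0939%) and kidney PBMC 1 of 1143 (0.0875%, 0.00222 to 0.486%). Liver PBMC held 0 of 6822, with an exact upper bound of 0.0541%. The 0 of 795 in kidney PC and 0 of 2004 in kidney TIL had exact upper bounds of 0.463% and 0.184%. With so few cells, these shares could not be told from those of the blood libraries. The bound for kidney PC also reaches into the intervals of liver PC and of the library labelled heart TIL. Over all their passing cells the 5 rule genes stood at 4.04 CPM (0.490 to 14.6) in kidney PC and 1.35 CPM (0.164 to 4.89) in kidney TIL. They stood at 75.5, 64.3 and 13.4 CPM in heart, liver and kidney PBMC. No neutrophil, by the limits given below, was found in kidney PC or kidney TIL. Liver PC, with most of the cells, was also the deepest library, and the part of depth was not tested. Tissue libraries gave 98 of the 107 cells (91.6%, 84.6 to 96.1%), or 0.308% of their passing cells against 0.0572% of passing cells in blood (9 of 15737). Graft and blood libraries of an organ may share mice, and organs did not all go the same way. Liver PC held 0.550% and liver PBMC 0 of 6822, while kidney PC and kidney TIL held 0 and kidney PBMC 1 cell (0.0875%). Without the libraries labelled heart TIL and liver TIL, 64 cells were left and 85.9% of them came from tissue.

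**Figure D1:**
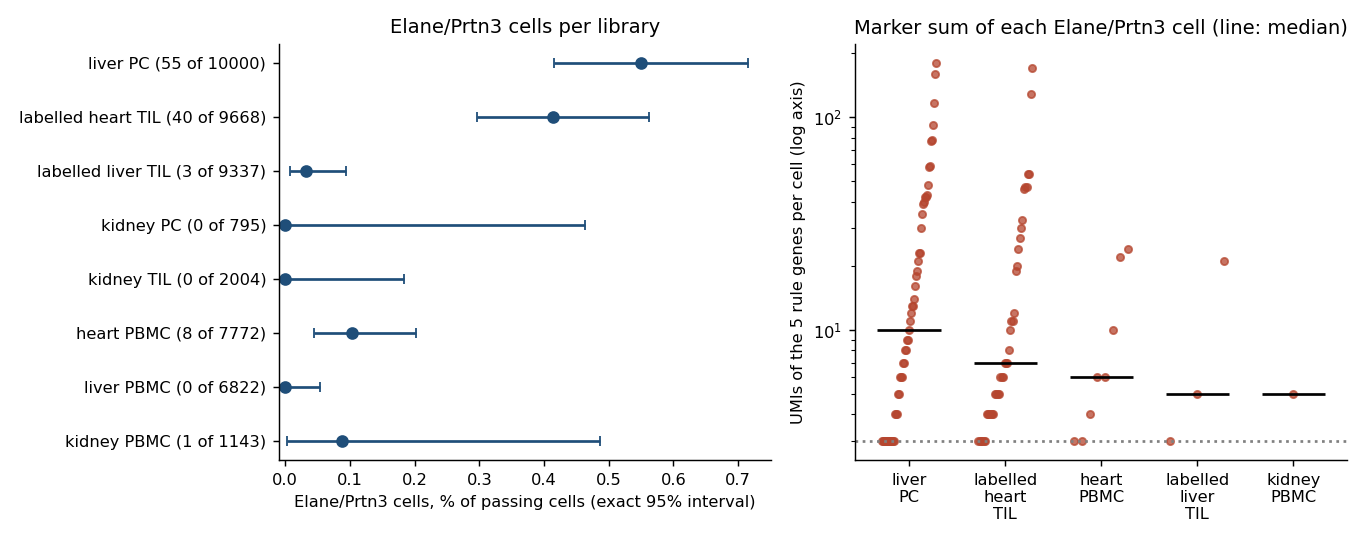
Left, the share of passing cells that met the rule in each of the 8 libraries, as points with exact 95% binomial intervals. Right, the summed UMIs of the 5 rule genes in each cell on a log axis, ordered within its library, with the median as a line and the limit of 3 UMIs dotted; liver PC reached 180 and the library labelled heart TIL 170.

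The cells were as deep as, or deeper than, the libraries around them. Median UMIs were 2039 in the liver PC cells against 1501.5 in all passing cells there, 938.5 against 794.5 in the library labelled heart TIL, and 3188.5 against 764 in heart PBMC. The 107 cells held 504 to 7199 UMIs, and their mitochondrial share stayed at or below 2.45%. The marker limit is in raw UMIs, which deeper cells reach more easily. The depth of the cells may therefore be fixed in part by the choice, and how far was not tested. No doublet caller was run, and the part of barcodes with more than 1 cell was not tested.

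The 5 rule genes were spread very unevenly over the cells, and since they chose the cells their values are a description. The marker sum, that is the UMIs of the 5 genes together, had a median of 8 over all cells and ran from 3 to 180. In liver PC its median was 10 and its highest values 180, 159 and 117. In the library labelled heart TIL its median was 7 and its highest values 170, 129 and 54. Over all libraries 49 cells had a marker sum of 10 or more, 26 of 5 to 9, and 32 of 3 or 4. Just inside the limit stood 22 cells with 3 UMIs and 10 with 4. Just outside stood 52 cells with 2 UMIs over 2 genes and 26 cells with at least 3 UMIs of 1 gene alone, 22 of them with Prtn3 alone.

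**Figure D2:**
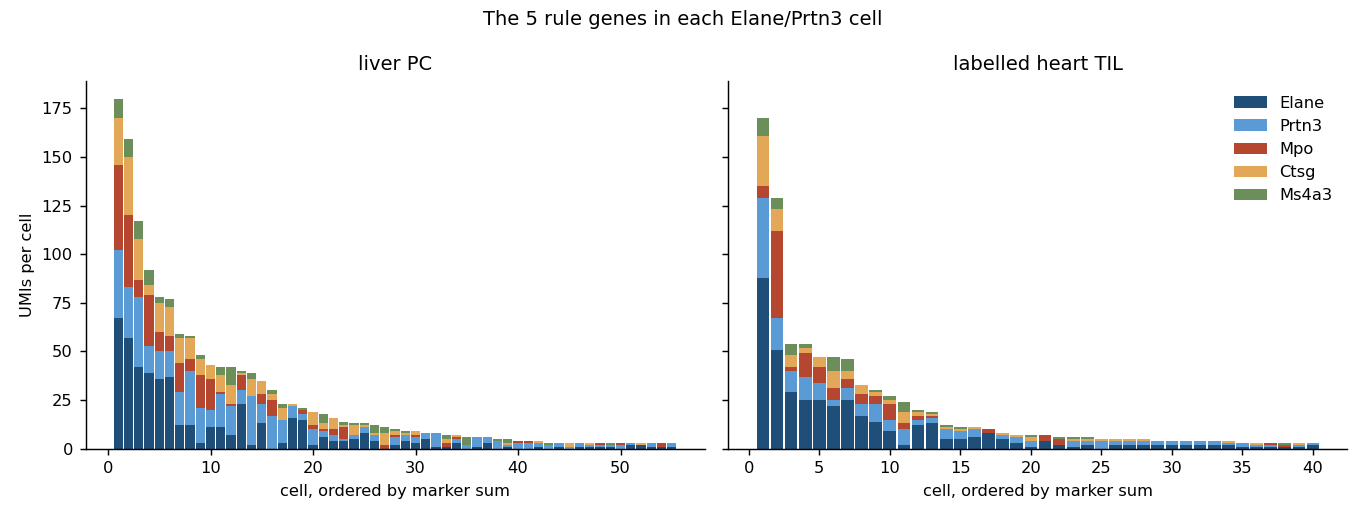
UMIs of Elane, Prtn3, Mpo, Ctsg and Ms4a3, stacked, in each cell of liver PC (55 cells) and of the library labelled heart TIL (40 cells), ordered by their sum. A few cells with more than 100 UMIs stand beside a long run of cells at the limit of 3, and the tallest bars hold all 5 genes.

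Prtn3 was detected in 99 of the 107 cells and Elane in 94, Ctsg in 70, Ms4a3 in 56 and Mpo in 49. All 5 genes were seen in 27 cells, 4 in 26, 3 in 21 and 2 in 33. The cell with most of them, in liver PC, held 67 Elane, 35 Prtn3, 44 Mpo, 24 Ctsg and 10 Ms4a3 UMIs of 4126. In heart PBMC the pattern was another one. There 7 of 8 cells held Elane at 1 to 4 UMIs and all 8 held Prtn3 at 1 to 12, Ctsg was found in 2 cells, and Mpo in 1 cell with 1 UMI.

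Elane and Prtn3 are neighbours on mouse chromosome 10 (GRCm38, GENCODE gene bodies chr10:79886247-79888215 and chr10:79874476-79883174, both on the + strand), and the bases before their starts are shown because they were the rule genes found in most cells. These are the 150 bases before the RefSeq start of each gene (GRCm38.p6, chr10:79886162-79886311 and chr10:79879517-79879666, + strand), with GGAAGT, a core of the Spi1 (PU.1) motif, and AACGG, a core of the Myb motif, in capitals.
Elane: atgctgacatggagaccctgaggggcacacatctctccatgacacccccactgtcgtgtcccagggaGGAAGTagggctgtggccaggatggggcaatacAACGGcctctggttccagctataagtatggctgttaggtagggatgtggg
Prtn3: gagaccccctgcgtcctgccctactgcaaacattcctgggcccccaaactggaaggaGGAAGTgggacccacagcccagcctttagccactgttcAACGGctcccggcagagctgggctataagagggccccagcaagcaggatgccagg
Both strands were searched, and the letters were chosen after the sequences were seen. GGAAGT begins 83 bases before the start of Elane and 93 before that of Prtn3, and AACGG begins 50 and 55 bases before. Of 27025 promoters cut to the same window, 13.9% hold GGAAGT, 9.59% hold AACGG and 1.62% hold both. The window of Ms4a3 holds GGAAGT once, and those of Mpo and Ctsg hold neither run of letters.

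Most UMIs of the rule genes lay outside the chosen cells. In liver PC the 55 cells held 1459 of 4827 marker UMIs (30.2%), and in the library labelled heart TIL the 40 cells held 853 of 2211 (38.6%). T cells, which should lack these genes (Cd3d, Cd3e, Cd3g and Trac at 3 UMIs or more, median depth 1584 and 879 UMIs), held Elane at 54.0 and 77.5 CPM against 3568 and 7206 CPM in the cells chosen. Median depths of the chosen cells there were 2039 and 938.5 UMIs. An Elane UMI was found in 5.51% of T cells of liver PC and in 5.05% of those of the library labelled heart TIL, against 46 of 55 and 39 of 40 of the chosen cells. Of 6192 and 4355 T cells, 46 (0.743%, 0.544 to 0.990%) and 15 (0.344%, 0.193 to 0.567%) met the marker rule themselves. The shares of chosen cells given above are over all passing cells, which include T cells that the rule bars. The denominators are therefore unlike, and these shares cannot be set against each other. The 46 and 15 T cells held 347 of 676 and 139 of 352 of the Elane UMIs of T cells. Without them Elane stood at 26.6 and 47.1 CPM in T cells, and 4.95 and 4.75% of them held an Elane UMI. In blood, Prtn3 was spread over neutrophils. Of 374 Prtn3 UMIs in heart PBMC, 274 lay in the 6289 neutrophils and 39 in the 8 chosen cells, and 189 of 324 lay in neutrophils in liver PBMC.

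The limits on lymphoid genes left out about as many marker UMIs as they kept in liver PC. There 63 cells met the marker rule but held too many T cell UMIs or Cd79a, with 1430 marker UMIs between them, and 20 such cells with 321 marker UMIs stood in the library labelled heart TIL. Of these 83 cells, 26 had a marker sum of 10 or more, and the highest sum of all, 210, was among them. The 20 of liver PC with a sum of 10 or more were deep (median 3791.5 UMIs) and held a median of 3 UMIs of the T cell genes. Their T and NK list, which leaves out the 4 genes of the rule, stood at 4948 CPM, against 2197 CPM in chosen cells of the same marker sum, 7781 CPM in neutrophils and 23233 CPM in T cells. Their cell cycle list stood at 10924 CPM, against 10251 CPM in those chosen cells. With no limit on T cell genes the rule gave 188 cells, 95.2% of them from tissue, and with none of those genes allowed it gave 57, 86.0% of them from tissue.

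Kit and Cd34, which with the Fc gamma receptors define granulocyte-monocyte progenitors, were close to absent. Kit, the stem cell factor receptor, was at 0 over the 222334 UMIs of the 107 cells, which allows up to 13.5 CPM. Cd34 and Flt3, a receptor of earlier progenitors, each gave 2 UMIs, in 2 cells. Fc gamma receptor genes were not above T cells in both libraries. Fcgr3 gave 43 UMIs in liver PC (322 CPM) and 11 in the library labelled heart TIL (199 CPM), against 555 and 790 CPM in neutrophils and 619 and 757 CPM in monocytes and 185 and 313 CPM in T cells. Fcgr2b gave 26 and 6 UMIs (195 and 108 CPM), against 289 and 301 CPM in neutrophils and 144 and 164 CPM in T cells. The counting intervals of the Elane/Prtn3 cells held the T cell level except for Fcgr3 in liver PC (233 to 434 CPM). This pair of genes was named after the values were seen. Myb, a transcription factor of immature blood cells, gave 5 UMIs in 5 cells, and Gfi1, a repressor needed for neutrophil development, gave 0. The cells are therefore called Elane/Prtn3 cells here, after the leading genes of the rule, and not progenitors. How well such genes are detected in these libraries was not tested. Cebpe, the factor of the promyelocyte to myelocyte step, was found in 10 cells with 18 UMIs. It stood at 75.0 CPM (35.9 to 138) in liver PC and 108 CPM (39.8 to 236) in the library labelled heart TIL, against 8.30 and 0 CPM in neutrophils of the same libraries and 1.82 and 4.98 CPM in monocytes.

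Across all genes the Elane/Prtn3 cells differed from neutrophils in both directions. Neutrophils (448 and 231 cells) and monocytes (1437 and 985 cells) of liver PC and of the library labelled heart TIL were chosen by other genes under the same lymphoid limits, so differences in those genes are fixed by the choice. The monocyte set also carried macrophage RNA, with C1qc, a complement gene, at 2103 and 1750 CPM. It may hold macrophages beside monocytes, which was not tested, and the name monocytes stands for cells that met its limits. A gene was called when its fold of summed CPM, with a pseudocount of 10 CPM, was at least 2 in the mean of the 2 libraries and had the same direction in both. Of 3223 genes with enough UMIs, 471 were higher (14.6%) and 467 lower (14.5%), and the median log2 ratio of all genes was 0.21. Against monocytes, 290 of 3194 genes were higher (9.08%) and 385 lower (12.1%). The 5 rule genes led the higher side by construction. Next against neutrophils came Fcnb, a ficolin of immature neutrophils, with 29 UMIs in the liver PC cells against 5 in neutrophils there and 30 against 3 in the other library (log2 ratio 4.10), then Prss57 (3.37) and Serpinb1a (3.32), and lower down Cebpe (2.89), Gstm1, a glutathione transferase (2.85), Uck2, a uridine-cytidine kinase (2.61), and Tuba4a, a tubulin (2.58).

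Some genes of the same granule stage that the rule did not use were higher in the Elane/Prtn3 cells. Prss57, a serine protease of azurophil granules, stood at 112 and 126 CPM, against 5.54 and 0 CPM in neutrophils and 2.19 and 0.996 CPM in monocytes. Serpinb1a, the cytosolic inhibitor of neutrophil elastase, stood at 555 CPM (436 to 696) and 542 CPM (366 to 773), against 45.7 and 45.9 CPM in neutrophils and 32.8 and 39.4 CPM in T cells. Of the 14 genes of this list, 5 were called higher and 1 lower than in neutrophils, and 8 were not called, with a median log2 ratio of 0.66 against 0.21 over all genes, of which 14.6% were called higher and 14.5% lower. Against monocytes 3 were called higher (Prss57, Serpinb1a and Cst7) and 2 lower (Lyz2 and Ctsc), where 9.08% of all genes were called higher and 12.1% lower. The other 3 higher genes were Cst7, the inhibitor cystatin F, and the chaperones Calr and Pdia6, with log2 ratios of 1.05, 1.02 and 1.23. Lyz2, which encodes lysozyme and stays on in mature myeloid cells, was lower than in monocytes (log2 ratio -1.19) and did not reach the 2-fold limit against neutrophils (-0.75).

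The stem and precursor list gave no single direction. Summed over its 17 genes it stood at 1462 against 1564 CPM of neutrophils in liver PC and 1066 against 1361 CPM in the library labelled heart TIL, a mean log2 ratio of -0.22. Gene by gene, 2 of 6 genes tested were called higher than in neutrophils (Cebpe and Cdk6, a cyclin-dependent kinase) and none lower, where 14.6% of all genes were called higher, with a median log2 ratio of 0.51 against 0.21 over all genes. The other genes of the 17 had fewer than the 10 UMIs needed. Cebpe reached that number only through the Elane/Prtn3 cells (10 and 6 UMIs, against 8.30 and 0 CPM in neutrophils). These counts and the median are therefore a description. Against monocytes 3 were called higher (Cebpe, Cdk6 and Runx1, a factor of blood cell development), where 9.08% of all genes were, and 1 lower (Csf1r, a gene that had a part in choosing the monocytes), where 12.1% were.

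Most genes of the gelatinase granule and mature neutrophil list were lower than in neutrophils. Of its 9 genes, 8 were called lower, where 14.5% of all genes were, and the remaining one, S100a8, had a log2 ratio of -0.97. Of these 9 genes, 7 had a part in choosing the neutrophils, and only Mmp8 and Il1b had none. Retnlg, one of the genes that chose the neutrophils, gave 37 UMIs in the liver PC cells against 3126 in neutrophils, and 14 against 789 in the library labelled heart TIL (log2 ratio -3.93). Il1b, interleukin 1 beta, had a log2 ratio of -3.42. The 15 genes with the lowest ratios to neutrophils included others that had no part in choosing them. Fpr1, the formyl peptide receptor, had a log2 ratio of -3.96, Cxcl2, a neutrophil chemokine, -3.74, Cd5l, a gene of tissue macrophages, -3.65, G0s2, a lipase inhibitor, -3.34, and Ptgs2, the inducible prostaglandin synthase, -3.22. Some of these ratios rest on few UMIs in the Elane/Prtn3 cells. Fpr1 gave 11 UMIs in liver PC and 0 in the library labelled heart TIL, with log2 ratios of -2.24 and -5.69. Cd5l gave 0 and 0, and Ptgs2 1 and 0, while Cxcl2 gave 30 and 17 and G0s2 25 and 8. Fpr1 and Cd5l were also among the 15 lowest against monocytes (-3.41 and -4.19).

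Camp, Ngp and Ltf were held by a small number of cells, in contrast to Chil3 (a chitinase-like protein gene), found in 90 of the 107 cells, and Lcn2 (lipocalin 2), found in 51. Camp, the cathelicidin gene, gave 218 UMIs in 7 of the 55 liver PC cells and 51 UMIs in 3 of the 40 cells of the library labelled heart TIL. Its level was 1634 CPM against 379 CPM in neutrophils and 18.2 CPM in monocytes in liver PC, and 921 against 392 and 28.9 CPM in the library labelled heart TIL. The list of 7 genes stood at 12804 and 11305 CPM in the Elane/Prtn3 cells, 9443 and 8067 CPM in neutrophils and 6289 and 5983 CPM in monocytes, with mean log2 ratios of 0.46 and 0.97. Chil3 made up 1013 of its 1708 UMIs in the liver PC cells and 518 of 626 in those of the library labelled heart TIL. Without Chil3 the list stood at 5210 and 1950 CPM, against 3632 and 2064 CPM in neutrophils (log2 ratios 0.52 and -0.08) and 583 and 317 CPM in monocytes (3.14 and 2.58). In the library labelled heart TIL the intervals of the Elane/Prtn3 cells and neutrophils overlapped (1600 to 2355 and 1868 to 2275 CPM). Single cells carried much of what was left, 301 of 695 UMIs in liver PC and 69 of 108 in the library labelled heart TIL. Without that cell of each library the 6 genes stood at 3023 and 730 CPM, below neutrophils in both (log2 ratios -0.26 and -1.49). Against neutrophils 2 of the 7 genes were called higher (Camp and Fcnb) and 1 lower (Lcn2), where 14.6% of all genes were called higher and 14.5% lower. Against monocytes 4 were called higher (Camp, Ngp, Fcnb and Ltf), where 9.08% of all genes were. All 4 reached the 10 UMIs needed only through the Elane/Prtn3 cells, and Fcnb did so against neutrophils too. These counts of called genes are therefore a description. The same pair of cells held 97 of 218 and 45 of 51 of the Camp UMIs, and without them the mean log2 ratio of Camp to neutrophils was -0.22, no longer called, while that of Fcnb was 3.44. Against monocytes the 4 genes had log2 ratios of 2.66 to 3.78 without them. With only the cells of a marker sum of 10 or more, the log2 ratio of all 7 genes to neutrophils was 0.025.

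Counting cells by what they held beside the rule genes gave 3 groups, with limits set after the values were seen. In 10 cells, 7 of liver PC and 3 of the library labelled heart TIL, Camp, Ngp, Ltf and Fcnb summed to at least 3 UMIs. These 10 cells held 33 to 281 UMIs of S100a8 (median 139), a calprotectin subunit, 6 of them held Cebpe, and their marker sums ran from 8 to 129. The cell with most specific granule RNA, in liver PC, held 97 Camp, 123 Ngp and 16 Ltf UMIs beside 5 of Elane and 3 of Prtn3, and 3 Cebpe UMIs. In 37 further cells Lyz2 reached at least 10 UMIs without such granule RNA. Their median marker sum was 4, they held a median of 32 Lyz2, 27 Chil3 and 15 Ly6c2 UMIs, and 4 of them had a marker sum of 10 or more. The remaining 60 cells reached neither limit, with a median of 4 Lyz2 UMIs. Their median marker sum was 12, the highest was 180, and 57 of them held Ly6c2. The limits are in raw UMIs and the groups differed in depth. Median UMIs were 1820 in the 10 cells with granule RNA, 2039 in the 37 with Lyz2 and 1188 in the 60 others. The part of depth in this split was not tested.

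**Figure D3:**
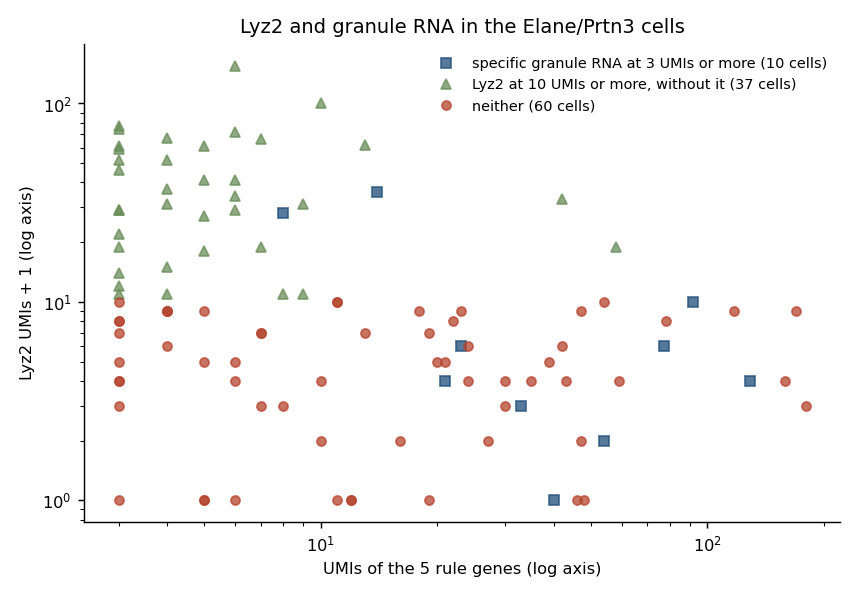
Lyz2 UMIs plus 1 (vertical log axis) against the UMIs of the 5 rule genes (horizontal log axis) for the 107 cells, with squares for the 10 cells with specific granule RNA, triangles for the 37 cells with at least 10 Lyz2 UMIs without it, and circles for the 60 others. Most triangles lie at marker sums of 3 to 10, and the cells at the far right hold fewer than 10 Lyz2 UMIs.

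Ly6c2 was the monocyte gene that stood out beside the granule genes, while F13a1 was higher than in neutrophils but sparse. Ly6c2, the surface antigen of inflammatory monocytes and of granulocyte-monocyte progenitors, was found in 103 of the 107 cells with up to 62 UMIs. It stood at 6132 CPM (5719 to 6567) in liver PC and 5508 CPM (4907 to 6162) in the library labelled heart TIL, against 2224 and 1300 CPM in neutrophils, 2162 and 1658 CPM in monocytes and 1814 and 1151 CPM in T cells. Ly6c1 and Ly6c2 are nearly identical, and reads that aligned to more than 1 place were removed, so the split between this pair of genes is uncertain. F13a1, a coagulation factor subunit of monocytes, stood at 270 and 181 CPM against 85.8 and 56.1 CPM in neutrophils. Csf1r, the macrophage colony-stimulating factor receptor, stood at 165 and 162 CPM against 665 and 602 CPM in monocytes, which Csf1r, Ly6c2 and F13a1 had a part in choosing. Irf8, a factor of the monocyte lineage, stood at 232 and 217 CPM against 232 and 241 CPM in monocytes, within the counting intervals. The list of 9 monocyte genes had a log2 ratio to neutrophils of 0.94 in liver PC and 1.34 in the library labelled heart TIL, and Ly6c2 made up most of its UMIs. Gene by gene, 2 of 7 genes tested, Ly6c2 and F13a1, were called higher and none lower, where 14.6% of all genes were called higher, and the median log2 ratio of the list was -0.04 against 0.21 over all genes. Against monocytes 1 was called higher (Ly6c2) and 1 lower (Csf1r) of 7 tested, where 9.08% of all genes were called higher and 12.1% lower, with a median of -0.75 against 0.12 over all genes.

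Cell cycle RNA was high in the Elane/Prtn3 cells, near the level of T cells. The 94 genes of S and G2/M phase together stood at 8816 CPM (8319 to 9334) in liver PC, against 3554 CPM in neutrophils, 3517 CPM in monocytes and 9409 CPM in T cells. In the library labelled heart TIL they stood at 9608 CPM (8809 to 10460), against 3909, 3730 and 8280 CPM. The mean log2 ratios were 1.30 to neutrophils and 1.34 to monocytes, and the libraries gave 1.31 and 1.30 for neutrophils. Of 43 cycle genes tested, 33 were called higher than in neutrophils, 32 higher than in monocytes, and none lower in either, where 14.6 and 9.08% of all genes were called higher, with a median log2 ratio of 1.21 against 0.21 over all genes for neutrophils and 1.27 against 0.12 for monocytes. The other genes of the 94 had fewer than the 10 UMIs needed, and a gene could reach that number through the group where it was high. These counts and medians are therefore a description, while the summed levels use all 94 genes.

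Genes of both phases took part. Rrm2, a subunit of ribonucleotide reductase, gave 54 UMIs in 27 of 55 cells of liver PC (405 CPM, 304 to 528) against 56.7 CPM in neutrophils, and 235 CPM (125 to 401) against 86.6 CPM in the library labelled heart TIL. Cks1b, a partner of the cyclin-dependent kinases, stood at 375 and 578 CPM against 94.1 and 102 CPM in neutrophils. Cdk1, the mitotic kinase, stood at 195 and 199 CPM against 56.7 and 61.2 CPM, and Aurkb, a kinase of chromosome segregation, at 142 and 199 CPM against 47.1 and 15.3 CPM. Mki67 and Top2a were sparse, with 6 UMIs in 5 cells and 11 UMIs in 9 cells. In liver PC the S phase genes stood at 3568 CPM against 1161 CPM in neutrophils and the G2/M genes at 5247 against 2393 CPM. In the library labelled heart TIL they stood at 2980 against 1289 CPM and at 6628 against 2620 CPM.

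To compare cells of unequal depth, every cell was thinned to 500 UMIs. At least 2 cycle UMIs were then found in 39 of 55 Elane/Prtn3 cells of liver PC (70.9%, 57.1 to 82.4%) and in 35 of 40 of the library labelled heart TIL (87.5%, 73.2 to 95.8%). The same share was 49.3 and 55.4% of neutrophils, 39.7 and 48.0% of monocytes, 79.0 and 78.3% of T cells and 68.4 and 69.0% of all other passing cells. Neutrophils and monocytes lay below the interval of the Elane/Prtn3 cells in each library and T cells within it, and all other passing cells lay within it in liver PC and below it in the library labelled heart TIL. Without thinning it was 96.4 and 92.5% of the Elane/Prtn3 cells, and 85.7 and 77.1% of neutrophils. At 5 cycle UMIs or more, a limit chosen after the data were seen, the shares were 40.0% (22 of 55, 27.0 to 54.1%) and 37.5% (15 of 40, 22.7 to 54.2%), against 8.04 and 7.36% of neutrophils, 7.45 and 7.72% of monocytes, 39.1 and 34.3% of T cells and 29.6 and 24.7% of all other passing cells, the last 2 sets within the intervals of the Elane/Prtn3 cells. The part of free cycle RNA from T cells in these shares was not tested.

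**Figure D4:**
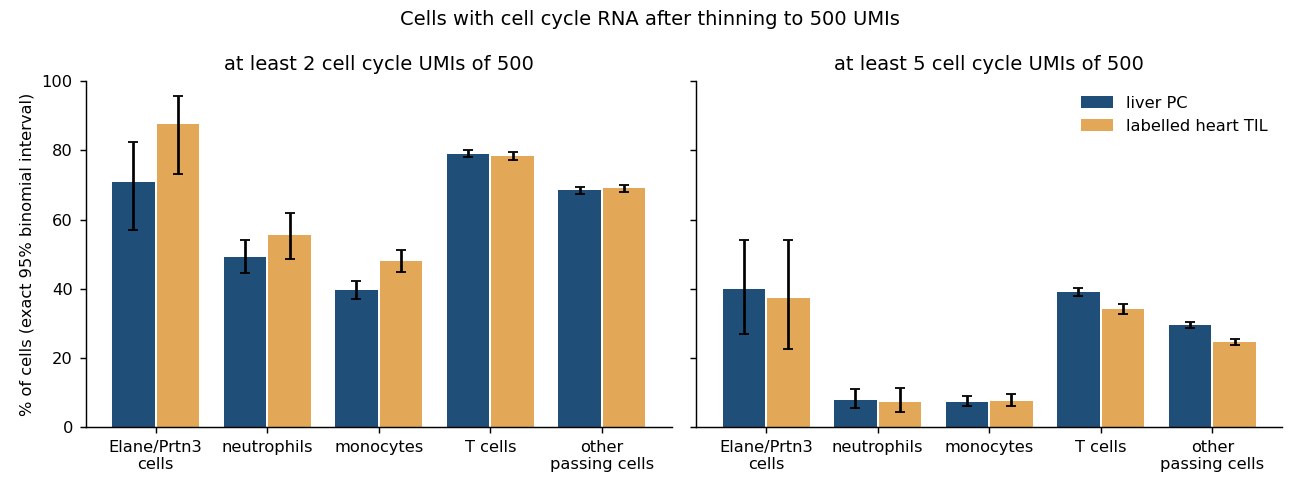
Percent of cells with at least 2 (left) and at least 5 (right) cell cycle UMIs after thinning to 500 UMIs, in liver PC and in the library labelled heart TIL, for the Elane/Prtn3 cells and 4 other sets of cells, as bars with exact 95% binomial intervals. On the right the Elane/Prtn3 cells stand at 40.0 and 37.5% and neutrophils at 8.04 and 7.36%.

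Cells with a marker sum of 10 or more held more cycle RNA and less macrophage and T cell RNA than those at 3 or 4. In liver PC the cycle list stood at 5650 CPM (4833 to 6566) in the 16 cells with a marker sum of 3 or 4, at 7600 CPM (6440 to 8909) in the 11 with 5 to 9, and at 10251 CPM (9575 to 10962) in the 28 with 10 or more. In the library labelled heart TIL the values were 7289 CPM (5869 to 8950), 9621 CPM (8044 to 11417) and 10590 CPM (9444 to 11837) in 12, 11 and 17 cells. The intervals of neighbouring steps overlapped in the library labelled heart TIL, and those of the first 2 steps in liver PC. At least 2 thinned cycle UMIs were found in 9 of 16, 6 of 11 and 24 of 28 cells over the 3 steps in liver PC, and in 9 of 12, 10 of 11 and 16 of 17 cells in the library labelled heart TIL. The macrophage list ran the other way, at 2725 and 3364 CPM in cells with a sum of 3 or 4 and 528 and 1162 CPM in cells with 10 or more. The T and NK list stood at 5617 and 10413 CPM in the former and 2197 and 4065 CPM in the latter. Marker sum and depth moved together in part, with median UMIs of 1924.5, 1440 and 2560.5 over the 3 steps in liver PC and 832.5, 816 and 1177 in the library labelled heart TIL, and the part of depth was not tested.

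T and NK cell RNA was found in most Elane/Prtn3 cells, at lower levels than in the neutrophils around them. After thinning, at least 2 UMIs of any of 11 lists of other lineages (T and NK, B and plasma, erythroid, platelet, mast and basophil, eosinophil, hepatocyte, stromal, endothelial, tubule and cardiomyocyte, without the macrophage and dendritic lists) were found in 29 of 55 cells of liver PC (52.7%, 38.8 to 66.3%) and 33 of 40 of the library labelled heart TIL (82.5%, 67.2 to 92.7%). The same was found in 82.6 and 96.1% of neutrophils and in 65.1 and 88.4% of monocytes. The T and NK list, whose genes such as Gzma and Gzmb (granzymes) and Ccl5 (a chemokine) mark killer cells, had the most UMIs of these 11 lists. It stood at 3171 CPM (2876 to 3488) and 5797 CPM (5180 to 6467), against 7781 and 13633 CPM in neutrophils, 6118 and 10353 CPM in monocytes and 23233 and 26923 CPM in T cells. Of its 11 genes tested, 10 were called lower than in neutrophils and none higher, where 14.5% of all genes were called lower, and 2 were called lower than in monocytes, where 12.1% were. In single cells, 50 of the 107 held 1 UMI of the 4 T cell genes of the rule, the most it allows, and 57 held 0. Neutrophils and monocytes were chosen under the same limit but were less deep. Median UMIs were 2039 and 938.5 in the Elane/Prtn3 cells, 1252.5 and 722 in neutrophils and 1589 and 875 in monocytes. A limit in UMIs is stricter in deeper cells. The lower T and NK level may therefore be fixed in part by the choice of cells, and how far was not tested.

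Macrophage and antigen presentation genes were low as well. The macrophage list stood at 1357 CPM (1166 to 1570) and 2077 CPM (1715 to 2493), against 5273 and 4638 CPM in neutrophils and 8620 and 7861 CPM in monocytes, and 2710 and 3523 CPM in T cells. C1qa, a complement component of tissue macrophages, stood at 202 and 343 CPM, below the 617 and 597 CPM of T cells, which do not make it. Of 7 macrophage genes tested, 6 were called lower than in neutrophils and 7 lower than in monocytes, where 14.5 and 12.1% of all genes were. The dendritic list, mostly genes of MHC class II, stood at 6304 and 6772 CPM, against 7350 and 11134 CPM in T cells. Cd74, the invariant chain of MHC class II, stood at 2489 and 2908 CPM, against 6165 and 7405 CPM in neutrophils, 10283 and 12872 CPM in monocytes and 2951 and 5060 CPM in T cells. The list of B cell and plasma cell genes stood at 960 and 1336 CPM, against 2165 and 3725 CPM in neutrophils.

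**Figure D5:**
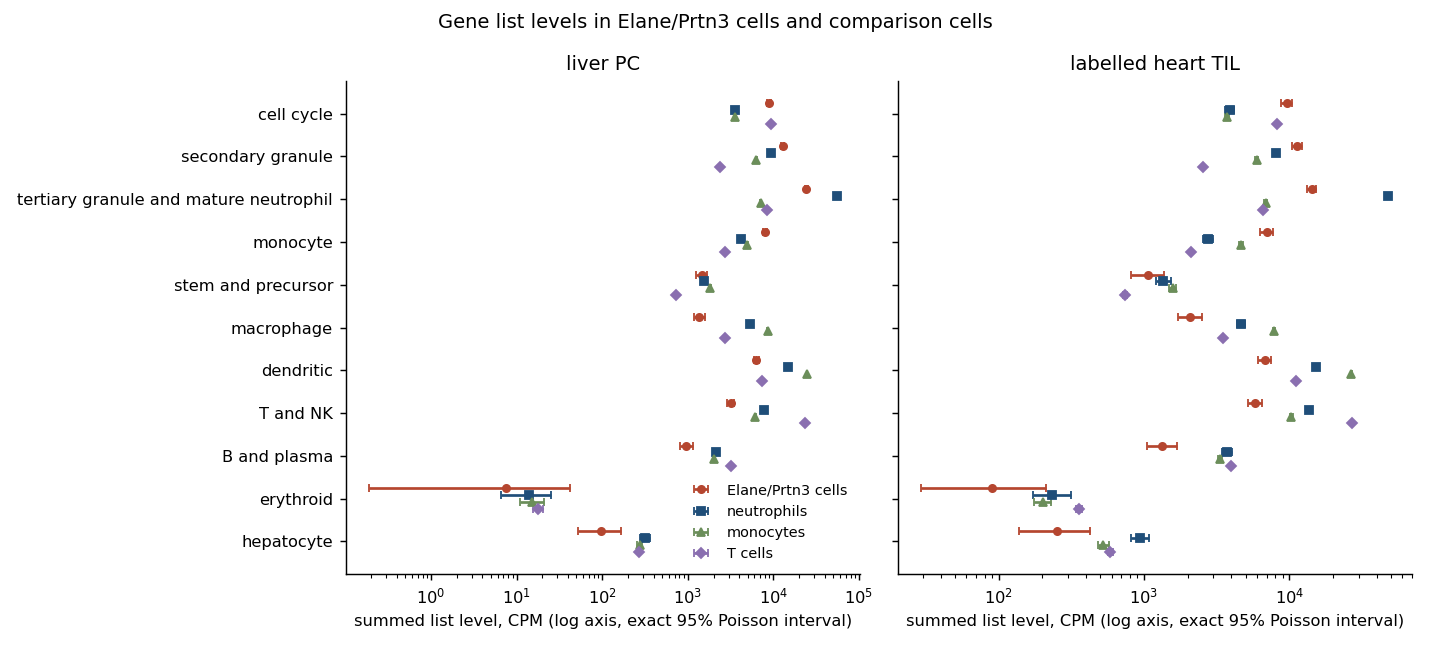
Summed levels of 11 gene lists, in CPM on log axes that differ between the panels, in the Elane/Prtn3 cells, neutrophils, monocytes and T cells of liver PC and of the library labelled heart TIL, with exact 95% Poisson intervals. The Elane/Prtn3 cells stand near T cells for the cell cycle list and lowest of the 4 for the macrophage, dendritic, T and NK, and B and plasma lists.

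Red cell and organ RNA was sparse in the cells of both large libraries. The erythroid list gave 1 UMI in liver PC and 5 in the library labelled heart TIL, the platelet list 2 and 0, the hepatocyte list 13 and 14, the cardiomyocyte list 5 and 1, and the tubule list 0 and 0, which allows up to 22.5 and 54.2 CPM. The eosinophil list gave 7 and 1 UMIs, and the stromal list 12 and 6. The endothelial list gave 27 UMIs in liver PC (202 CPM) against 42.9 CPM in neutrophils and 28.5 CPM in T cells, but 1 cell held 18 of them, and 8 of the 12 stromal UMIs. Without that cell the endothelial list stood at 68.3 CPM, from 9 UMIs. In the library labelled heart TIL it gave 1 UMI. The hepatocyte list stood at 97.5 and 253 CPM against 320 and 943 CPM in neutrophils. The 3 cells of the library labelled liver TIL differed here, with 31, 15 and 13 erythroid UMIs (11174 CPM), in a library where neutrophils stood at 54211 CPM and T cells at 39072 CPM. Hba-a1 and Hba-a2, which belong to this list, are nearly identical, and their counts are uncertain for that reason.

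A single cell of liver PC carried basophil RNA. It held 95 UMIs of Prss34 and 58 of Mcpt8, both basophil proteases, 10 of Cpa3 (carboxypeptidase A3), 6 of Fcer1a and 2 of Ms4a2 (subunits of the IgE receptor) and 3 of Gata2, beside 6 Ctsg, 3 Ms4a3 and 2 Mpo UMIs and no Elane or Prtn3, of 2016 UMIs. It held 171 of the 173 mast and basophil UMIs of the 55 cells, and in the library labelled heart TIL this list was at 0. The mast cell proteases Cma1, Tpsb2, Tpsab1 and Mcpt4 were at 0 in all 107 cells.

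The liver PC cells and those of the library labelled heart TIL were then set side by side, although the use of a density gradient, depth and label differ between them and cannot be told apart. Of 2818 genes, 359 were at least 2-fold higher in liver PC (12.7%) and 185 at least 2-fold lower (6.56%). Among the 1542 genes with at least 20 UMIs the split was less uneven, with 109 higher and 79 lower. Of these 544 genes, 30 had a 2-fold difference in the same direction in the other passing cells of both libraries. The same sign was found there for 429 of the 544. The matching counts over all 2818 genes were not made. Whether the differences are particular to the Elane/Prtn3 cells was therefore not tested. Most of the 15 genes with the largest ratios on the higher side were sparse. They had 12 to 19 UMIs in liver PC and none in the library labelled heart TIL, which had fewer and shallower cells. The 15 with the lowest ratios had 1 to 13 UMIs in liver PC and 7 to 24 in the library labelled heart TIL. Prss34 and Mcpt8 led the list through the single cell with basophil RNA, which held 95 of 96 and 58 of 59 of their UMIs in liver PC. Ngp (215 against 11 UMIs) and Ltf (42 against 1) were higher in liver PC, and 1 cell held 123 of the Ngp UMIs and 2 cells all 42 of the Ltf UMIs. Of the same list Fcnb was lower in liver PC (29 against 30 UMIs, 217 against 542 CPM, log2 ratio -1.28), and Camp was not called (0.82). In the library labelled heart TIL 1 cell held 16 of the 30 Fcnb UMIs, and without it Fcnb stood at 262 CPM there. S100a9, the other calprotectin subunit, was higher in liver PC, at 8801 against 2456 CPM. The 7 liver PC cells with specific granule RNA held 827 of its 1174 UMIs, and without such cells in both libraries S100a9 stood at 2900 against 1640 CPM, a log2 ratio of 0.82, under the 2-fold limit. Elane was lower in liver PC, at 3568 against 7206 CPM, and it is a rule gene. Prtn3, Mpo, Ctsg, Ly6c2, Lyz2 and Chil3 did not reach the 2-fold limit, with log2 ratios of -0.14, -0.24, 0.02, 0.15, -0.12 and -0.30.

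The 8 heart PBMC cells were few but deep. They held 9 to 29 UMIs of Retnlg and 31 to 97 of S100a8, and all 8 held Ly6c2, at 7 to 37 UMIs. In 6 of them Lyz2 was at 14 to 154 UMIs and Chil3 at 8 to 181, while the other 2 cells, with the highest marker sums of 24 and 22, held 3 and 7 Lyz2 UMIs. The gelatinase granule and mature neutrophil list stood at 34976 CPM, below the 216862 CPM of neutrophils and the 99013 CPM of T cells in that library. Their cycle list stood at 5415 CPM (4578 to 6361) against 1846 CPM in neutrophils, 2127 CPM in monocytes and 5835 CPM in T cells, and 4 of 8 held at least 2 thinned cycle UMIs against 23.1% of neutrophils. The 2 cells with the highest marker sums held 91 of the 148 cycle UMIs (35 and 56), and the other 6 held 1 to 17. Without those 2 cells the list stood at 3036 CPM. Their T and NK list stood at 1463 CPM against 5134 CPM in neutrophils.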

How the data were processed

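Single cells of 8 Microwell-seq libraries were analysed, 1 per condition. The submitters' processing notes name bcl2fastq, STAR and GRCm38. The authors aligned reads with STAR to a genome their methods give as GRCm38.88, tagged them with a GENCODE annotation, removed multi-aligned reads and merged UMIs that differ at 1 base, and the deposited tables hold whole-number UMI counts for each gene in each barcode, not normalized. The counts were summed per kind of cell and library and given as CPM with exact Poisson intervals, and shares with exact binomial intervals (95%, scipy 1.17.1). Cells were thinned to 500 UMIs with a fixed seed, and another seed was used as an alternative for the share with cycle UMIs. Neutrophils held at least 3 UMIs of S100a8 and S100a9 and at least 2 UMIs over at least 2 of Retnlg, Csf3r, Cxcr2, Mmp9 and Il1r2. Monocytes held at least 3 UMIs over at least 2 of Ly6c2, Ccr2, F13a1, Ms4a6c, Csf1r and Fn1. Folds used a pseudocount of 10 CPM and genes with at least 10 UMIs, observed in the Elane/Prtn3 cells or expected from the compared cells, over the libraries with at least 10 Elane/Prtn3 cells, weighted equally. The fold step was run on simulated sums with known changes and no spread between cells. It therefore could not test calls that rest on single cells. Named genes are those of 21 gene lists, the 5 rule genes among them, and the 15 largest folds per direction. The cells and lists were chosen with earlier results of these data known. Gene positions are from GENCODE vM21.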

Additional observations from a re-analysis of the deposited data

How the results depend on the processing

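No paired analysis was run. The study's methods take graft and blood samples from the same recipients of each organ, so libraries of an organ may share mice. The labels do not tie single libraries to mice, and each condition has 1 library. Of 112 alternatives over 13 results, 73 stayed within the counting interval or within 1.5 times the count and 39 moved. None of the log2 ratios changed direction, and the counts and shares could only stay or move. The limit of 5% mitochondrial UMIs could not change the number of cells, since no cell was above 2.45%. Beyond these alternatives, the log2 ratio of the secondary granule genes to neutrophils turned to -0.26 in liver PC and -1.49 in the library labelled heart TIL without Chil3 and 1 cell of each library. The number of cells, 107, went to 57 with T cell genes at 0 UMIs, to 188 with no limit on them and to 64 without the libraries labelled heart TIL and liver TIL. The share of cells with at least 2 cycle UMIs after thinning was 79.2% as the mean of both libraries, against 68.4 and 69.0% of all other passing cells there. This share of the Elane/Prtn3 cells was 84.3% with another seed for the thinning and 70.9 to 87.5% in single libraries. It was 93.3% at 1 UMI or more, 66.3% at 3 or more, 38.8% at 5 or more, 94.4% without thinning and 89.9% at a marker sum of 10 or more. The share with UMIs of another lineage, 67.6%, was 84.2% at 1 UMI or more, 48.3% at 3 or more and 91.7% without thinning, and 52.7 to 82.5% in single libraries. The log2 ratios of the cycle genes to neutrophils and monocytes were 1.42 and 1.46 at a marker sum of 5 or more, 1.48 and 1.52 at 10 or more, and 1.11 and 1.22 as a mean over cells, and 1.30 to 1.31 and 1.32 to 1.36 in single libraries. Those of the secondary granule genes were 0.61 and 0.89 as a mean over cells and 0.025 and 0.53 at a marker sum of 10 or more. The monocyte genes gave 1.26 as a mean over cells, 0.99 with all cells pooled and 0.94 to 1.34 in single libraries. The stem and precursor genes gave -0.51 at a marker sum of 10 or more. Genes called against neutrophils, 938, went to 418 with a pseudocount of 50 CPM and to 565 with at least 20 UMIs, and were 477 to 765 in single libraries, 477 without liver PC. Those against monocytes, 675, went to 288, 409 and, with at least 5 UMIs, 1036, and were 344 to 567 in single libraries, 344 without liver PC. Those between libraries, 544, went to 212, 188 and 1163. The limits of 5 cycle UMIs and of a marker sum of 10, and leaving out the doubted libraries, the cell with basophil RNA or the cells that held most UMIs of a list, of S100a9 or of Elane in T cells, and the secondary granule list without Chil3 or without 1 cell of each library, were alternatives chosen after the data were seen. With few cells and 1 library per condition, no difference between libraries can be told from a difference between mice.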
